A study of Homo sapiens with 8 samples.

Results

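The transcripts of 39 direct transcriptional targets and feedback partners of the tumor suppressor p53 were followed in OAW42-R cells, a cisplatin-resistant derivative of the serous ovarian cancer line OAW42, after knockdown of the long noncoding RNA UCA1. The 39 genes are a list by name out of 15454 genes tested on the arrays. They were chosen with the differences between siUCA1 and sictrl already known, so that these differences are given for them as a description. In the control condition (sictrl), cells received the Lincode nontargeting siRNA pool. In the knockdown condition (siUCA1), they received the Lincode UCA1 siRNAs numbered 2 and 4, which were not placed on separate arrays. The siRNA concentration was 20 nM in both conditions. The labels place RNA extraction 24 h after transfection, whereas the study's methods give a later time. Each condition was measured on 4 one-color arrays, from independent experiments by the study's methods, whose replicate names are A1, M2, A2 and A3, and the labels name no drug for either condition.

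p53 is a transcription factor that is kept at a low level by the ubiquitin ligase MDM2, aided by its relative MDM4, and that accumulates when cells sense DNA damage or other stress. It binds DNA as a tetramer and activates genes for cell cycle arrest, apoptosis, DNA repair and metabolic adaptation. Several of these genes, MDM2 among them, act back on p53 and limit the response. In ovarian cancer cells this program is part of the response to cisplatin, a drug that crosslinks DNA. Many of the genes also answer to other transcription factors, so that a change in one of them need not come from p53.

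The DNA element that p53 recognizes consists of 2 half-sites of 10 bases, each built around a core such as CATG, with C first, G last and A or T at both places between, and the consensus reads alike on both strands. RefSeq promoter windows of GRCh38.p14, from 250 bases before to 50 bases after a gene's start, were found for 31 of the 39 genes. The windows were searched for 2 half-sites with intact cores, at most 13 bases between them and at most 3 mismatches to the consensus. AEN, GDF15 and RPS27L held such a match, which is 3 of the 31 genes (9.68%), compared with 4.5% of all 27305 windows. The matches are printed to show what the element looks like at these genes, 5′ to 3′ along the gene's strand and with the cores in capitals.
AEN: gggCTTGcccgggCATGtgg
GDF15: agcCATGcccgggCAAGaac
RPS27L: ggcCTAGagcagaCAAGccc
The AEN match, with 2 mismatches, lies on the plus strand at chr15:88621306-88621325, upstream of the start. The GDF15 match, with 3 mismatches, lies on the plus strand at chr19:18386186-18386205, within the first bases of the transcript. The RPS27L match, with 3 mismatches, lies on the minus strand at chr15:63157527-63157546, upstream of the start. None of these 3 genes passed the test between the conditions, as described below, and the well-studied elements of CDKN1A and MDM2 lie farther upstream and in an intron, outside such a window.

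Values are log2 intensities relative to the 75th percentile of each array, so that 0 means as bright as that percentile, and a difference of 1 is a doubling. A gene is represented by its brightest probe well above background, and levels of different genes are not compared because probes differ in brightness. A gene is called when limma's moderated test over all genes gives an adjusted p under 0.05. UCA1 itself averaged 8.20 on the sictrl arrays (SD 0.49, n = 4) and 3.16 on the siUCA1 arrays (SD 0.47, n = 4), and fell by 5.04 (standard error 0.29, limma adjusted p = 0.000122). All 8 arrays lay on 1 slide. Among them sictrl A3 and siUCA1 A1 stood apart, and on these the trend in brightness that the scanner software removed from the surface had a root mean square of 0.321 and 0.287, compared with 0.0737 to 0.0943 on the other 6. Of 7 markers of ovarian carcinoma epithelium, PAX8, EPCAM, KRT7, KRT8 and KRT18 passed the detection filter and WT1 and MUC16 did not exceed background on a single array. Of 5 markers of other cell types, ACTA2 alone passed, and none of the tested markers was called. RNA came from whole cultures, so that fewer transcripts per cell and fewer cells of a kind cannot be told apart.

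The response of the list was uneven. After UCA1 knockdown 8 genes rose, namely TP53INP1, BTG2, CDKN1A, SPATA18, SESN1, BBC3, SESN2 and PPM1D, and they include regulators of arrest, apoptosis, autophagy and nutrient signalling. MDM4 and DRAM1 fell. MDM2, a widely used readout of p53, averaged 1.91 on the sictrl arrays (SD 0.32, n = 4) and 1.60 on the siUCA1 arrays (SD 0.26, n = 4) and did not pass the test. All 39 genes have a probe on the array and 35 passed the detection filter. The 10 called genes are 28.6% of those 35, beside 11.6% of all genes tested. The 8 rises stand beside 5.72% of all genes called higher, and the 2 falls beside 5.85% called lower. The list was chosen on this contrast, and nothing is read from the excess.

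The log2 fold change was above 0 for 27 of the 35 genes and below 0 for 8, with a median of 0.28, compared with a median of 0.03 and 54.2% above 0 over all genes. Among the 25 genes that were not called, 19 were above 0, with a median of 0.26 and a range from -0.56 to 0.74. The values on the 4 arrays of each condition did not overlap for 8 genes higher and 2 genes lower in siUCA1, compared with 11.2% and 9.67% of all genes. These are not the same 10 genes as the called ones. The arrays of RPS27L did not overlap although it was not called, and those of SESN2 overlapped although it was called.

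**Figure D1:**
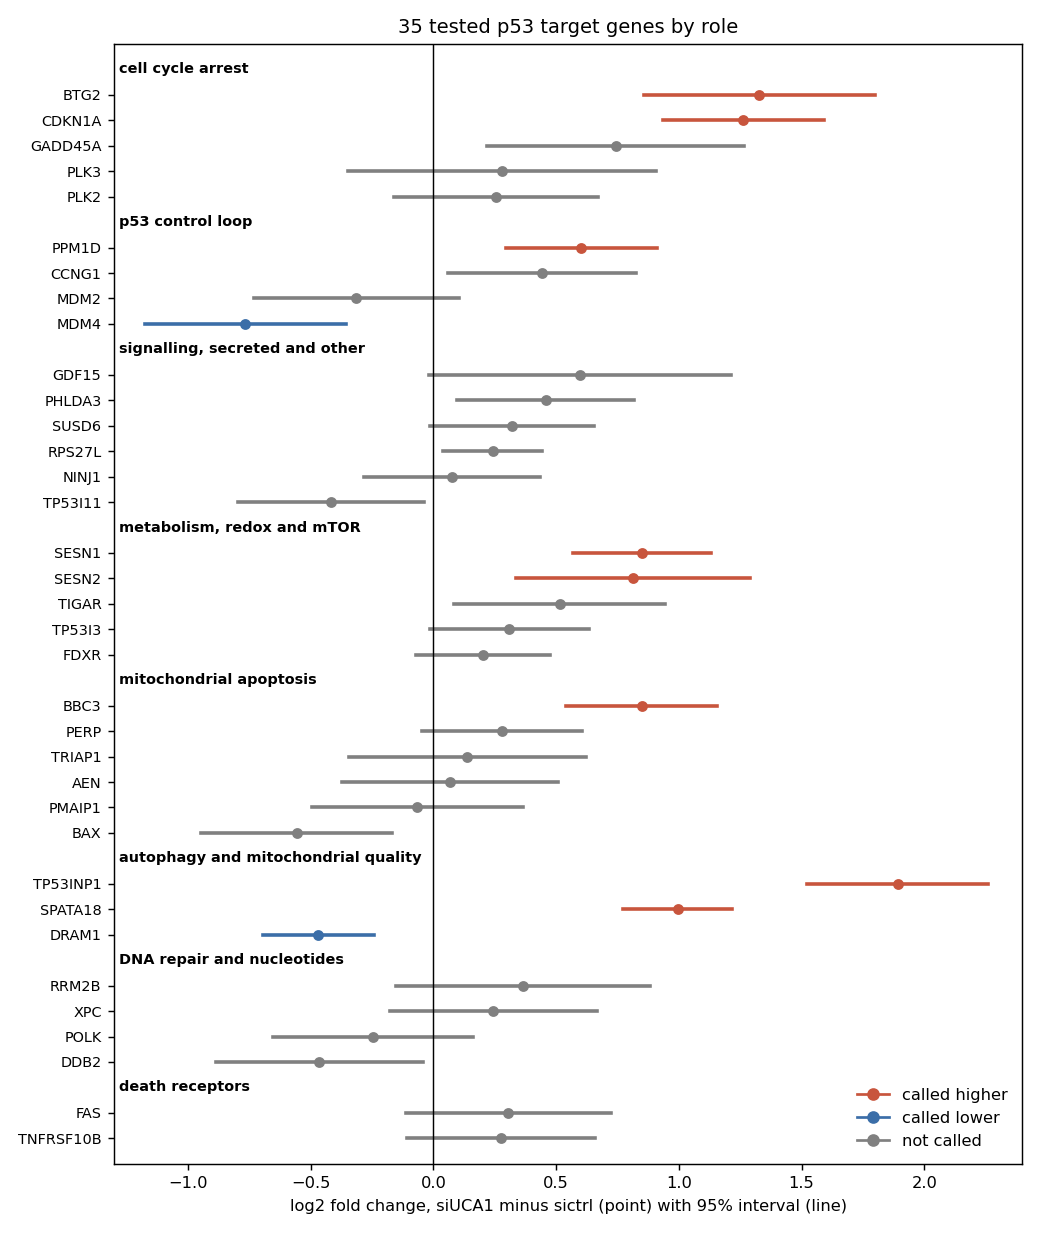
Log2 fold change (siUCA1 minus sictrl, points) with its 95% interval (lines) for the 35 tested p53 target genes, grouped by role; red, called higher, blue, called lower, grey, not called. TP53INP1 lies highest at 1.89 and MDM4 lowest at -0.77. All 5 genes of cell cycle arrest lie above 0, as do 54.2% of all genes tested.

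Genes of cell cycle arrest were above 0 in 5 of 5 cases, with a median log2 fold change of 0.74, and 2 of the 5 were called. Over all genes 54.2% were above 0 and 11.6% were called, and the list was chosen on this contrast. CDKN1A encodes p21, the inhibitor of cyclin-dependent kinases through which p53 halts the cycle in G1. CDKN1A was at 1.22 (A1), 1.22 (M2), 1.27 (A2) and 1.52 (A3) on the sictrl arrays and at 2.90 (A1), 2.49 (M2), 2.28 (A2) and 2.62 (A3) on the siUCA1 arrays. Every siUCA1 array lay above every sictrl array, and the log2 fold change was 1.26 with a standard error of 0.14, or 2.40-fold. BTG2, an antiproliferative cofactor of mRNA deadenylation, was at 3.70 (A1), 4.06 (M2), 4.10 (A2) and 4.58 (A3) in sictrl and at 5.01 (A1), 5.48 (M2), 5.57 (A2) and 5.70 (A3) in siUCA1. The conditions again did not overlap, with a log2 fold change of 1.33 (standard error 0.21), although sictrl A3 was the highest control and siUCA1 A1 the lowest knockdown array, so that the closest approach was between the 2 arrays that stood apart.

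GADD45A, a stress sensor that acts on the G2 checkpoint and on DNA repair, had the largest difference among the genes that were not called. It was at 2.78 (A1), 2.75 (M2), 2.51 (A2) and 3.49 (A3) in sictrl and at 3.56 (A1), 3.53 (M2), 3.35 (A2) and 4.07 (A3) in siUCA1. Without sictrl A3 the conditions are apart, and with it they overlap. The log2 fold change was 0.74 (95% interval 0.22 to 1.26) over all arrays, and 0.95, then called, without sictrl A3. With the replicate name as a block GADD45A was called over all arrays. PLK2 and PLK3, polo-like kinases of the stress response, had log2 fold changes of 0.26 and 0.28 with intervals that include 0. PLK2 was at 0.13 without siUCA1 A1 and 0.40 without sictrl A3. PLK3 was at 2.55 on sictrl A3, above all other arrays of either condition, and between 1.23 and 1.47 on the remaining sictrl arrays. Without sictrl A3 its log2 fold change was 0.58 and it was called.

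**Figure D2:**
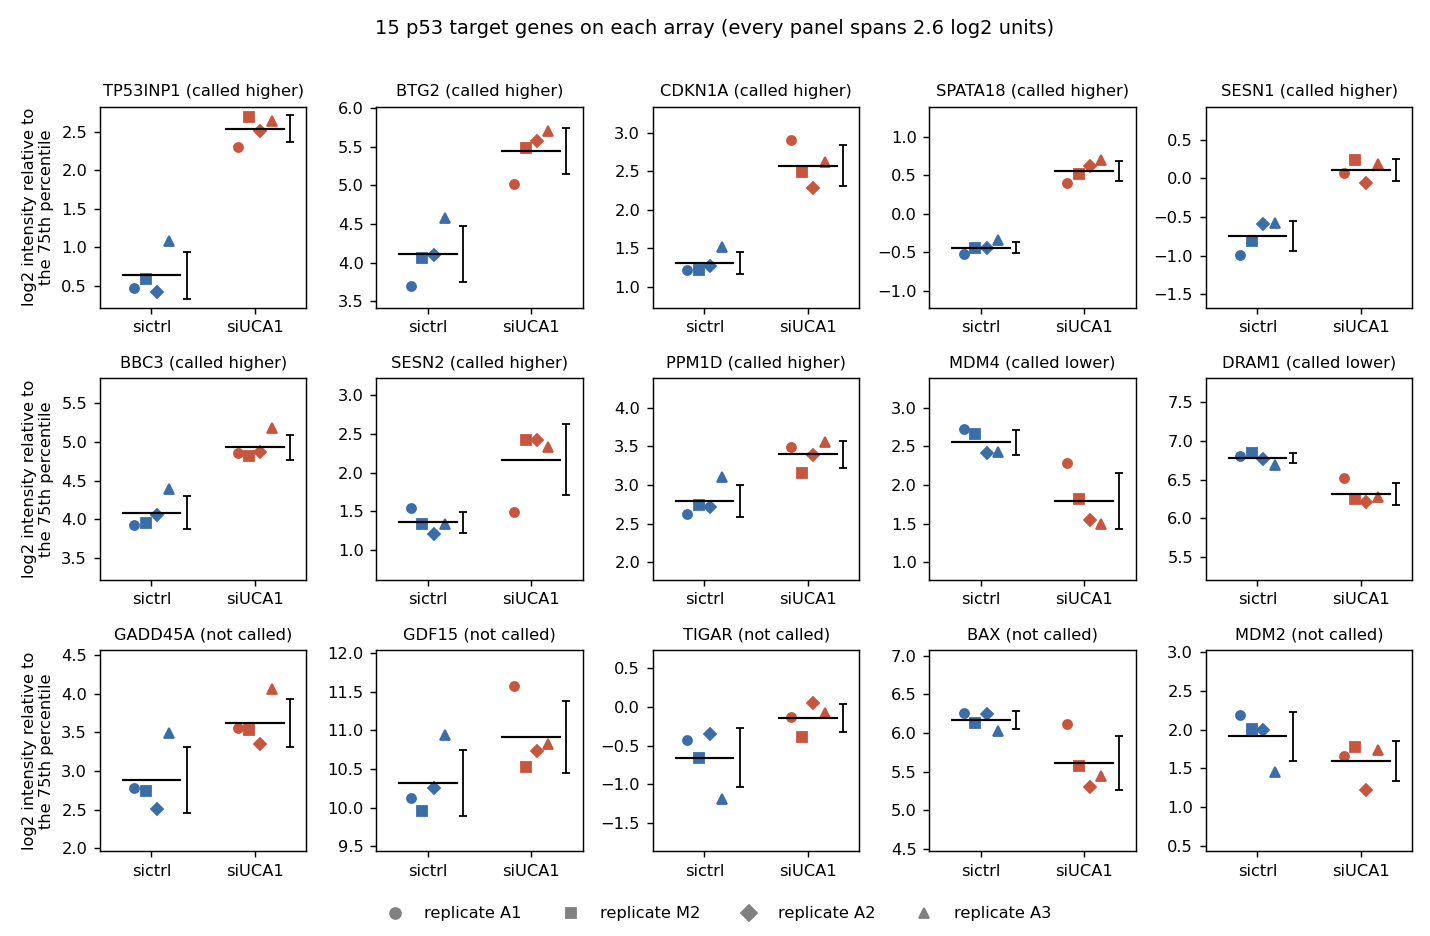
Log2 intensity relative to the 75th percentile of the array (vertical axes, each spanning 2.6 log2 units) for 15 p53 target genes on each of the 8 arrays; symbols mark the replicate name, horizontal lines the mean and bars the SD of 4 arrays. The conditions are apart for every called gene except SESN2, whose siUCA1 A1 value of 1.49 lies among the controls.

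The genes that act back on p53 moved in different directions. PPM1D encodes the phosphatase WIP1, which reverses stress phosphorylation of p53 and its kinases. It was at 2.62 (A1), 2.75 (M2), 2.71 (A2) and 3.10 (A3) in sictrl and at 3.49 (A1), 3.16 (M2), 3.39 (A2) and 3.56 (A3) in siUCA1. The conditions did not overlap, with sictrl A3 and siUCA1 M2 nearly level, and PPM1D rose by 0.60 (standard error 0.14). MDM4 encodes a relative of MDM2 that binds p53 and blocks its activation domain. MDM4 was at 2.73 (A1), 2.66 (M2), 2.41 (A2) and 2.42 (A3) in sictrl and at 2.29 (A1), 1.82 (M2), 1.55 (A2) and 1.50 (A3) in siUCA1. Each knockdown array was lower than each control array, with siUCA1 A1 nearest to the controls, and MDM4 fell by 0.77 (standard error 0.18), which is 1.70-fold. The call of PPM1D was lost without sictrl A1, M2 or A2 or siUCA1 A2 or A3 (log2 fold change 0.54 to 0.71 over the 8 fits with 1 array left out), and with median scaling and normexp background correction. That of MDM4 was lost without sictrl A1, M2 or A2 or siUCA1 M2, A2 or A3 (-0.93 to -0.67 over all 8 fits), and also with the slide column as a block, with median scaling and with normexp background correction.

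MDM2, the ubiquitin ligase that marks p53 for degradation, was at 2.19 (A1), 2.01 (M2), 1.99 (A2) and 1.46 (A3) in sictrl and at 1.65 (A1), 1.78 (M2), 1.22 (A2) and 1.73 (A3) in siUCA1. The conditions overlapped because the sictrl A3 value lay below 3 of the 4 knockdown values. The log2 fold change was -0.31 (95% interval -0.73 to 0.10), and lay between -0.47 without sictrl A3 and -0.19 without siUCA1 A2. CCNG1, which encodes cyclin G1, a partner of the phosphatase that dephosphorylates MDM2, had a log2 fold change of 0.44 (95% interval 0.06 to 0.83) on its brightest probe and was not called.

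The 6 genes grouped as mitochondrial apoptosis include a nuclease and a protein of desmosomes. They did not move together, with 4 above 0, 2 below 0 and a median of 0.10. BBC3 encodes PUMA, a BH3-only protein that binds and neutralizes antiapoptotic BCL2 relatives. It was the one gene of this group that was called, beside 11.6% of all genes. It was at 3.93 (A1), 3.95 (M2), 4.05 (A2) and 4.39 (A3) in sictrl and at 4.85 (A1), 4.82 (M2), 4.87 (A2) and 5.17 (A3) in siUCA1. The 8 values fall into groups that do not overlap, and BBC3 rose by 0.85 (standard error 0.13), or 1.80-fold, and its call was lost with median scaling. BAX, the effector that opens the outer mitochondrial membrane, was at 6.27 (A1), 6.13 (M2), 6.25 (A2) and 6.03 (A3) in sictrl and at 6.12 (A1), 5.58 (M2), 5.31 (A2) and 5.45 (A3) in siUCA1. On siUCA1 M2, A2 and A3 it was below every control, and siUCA1 A1 was among the controls. The log2 fold change of BAX was -0.56 (95% interval -0.94 to -0.17), not called, and -0.72, called, without siUCA1 A1. PMAIP1, which encodes the BH3-only protein NOXA, was at -0.07 (95% interval -0.50 to 0.36). The log2 fold changes of AEN, a nuclease, TRIAP1, an inhibitor of apoptosis, and PERP, a membrane protein of desmosomes, were 0.07, 0.14 and 0.28, with no call. The sign was not fixed for 3 of these genes, since AEN was at -0.03 without siUCA1 A3, TRIAP1 at -0.04 without sictrl A3 and PMAIP1 at 0.05 without siUCA1 A2.

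The death receptors showed small differences. FAS and TNFRSF10B, the receptors for FAS ligand and TRAIL, had log2 fold changes of 0.31 (95% interval -0.11 to 0.72) and 0.28 (95% interval -0.11 to 0.66). For FAS the difference came mostly from siUCA1 A1, at 3.52, compared with 2.71 to 2.80 on the remaining knockdown arrays and 2.51 to 2.76 in sictrl, and it was 0.11 without siUCA1 A1. TNFRSF10B lay between 0.17 without siUCA1 A3 and 0.42 without sictrl A3. TNFRSF10C, a TRAIL receptor without a signalling domain, did not exceed background on a single array.

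All 3 genes of autophagy and mitochondrial quality were called, 2 of them higher and 1 lower, beside 11.6% of all genes called. They were chosen on this contrast, and nothing is read from the count. TP53INP1 encodes a stress protein that enhances p53 activity and autophagy, and had the largest log2 fold change of the 35 genes. It was at 0.47 (A1), 0.59 (M2), 0.42 (A2) and 1.09 (A3) in sictrl and at 2.30 (A1), 2.69 (M2), 2.51 (A2) and 2.64 (A3) in siUCA1. The conditions were more than 1 log2 unit apart at their closest, and TP53INP1 rose by 1.89 (standard error 0.16), which is 3.71-fold. SPATA18 encodes Mieap, which takes part in the clearance of damaged mitochondria. It was at -0.52 (A1), -0.44 (M2), -0.45 (A2) and -0.34 (A3) in sictrl and at 0.40 (A1), 0.51 (M2), 0.62 (A2) and 0.70 (A3) in siUCA1. The 4 arrays of a condition lay close together on either side of 0, and SPATA18 rose by 1.00 (standard error 0.10), or by 0.65, still called, with normexp background correction.

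DRAM1, a lysosomal membrane protein that p53 uses to induce autophagy, went the other way. It was at 6.81 (A1), 6.85 (M2), 6.77 (A2) and 6.69 (A3) in sictrl and at 6.52 (A1), 6.25 (M2), 6.21 (A2) and 6.27 (A3) in siUCA1. The conditions did not overlap, and DRAM1 fell by 0.47 (standard error 0.10), or 1.38-fold. Its call was lost without sictrl A1, M2 or A2 or siUCA1 M2, A2 or A3 (log2 fold change -0.54 to -0.43 over the 8 fits with 1 array left out), and also with the slide column as a block, with median scaling and with normexp background correction.

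Genes of metabolism, redox balance and mTOR were above 0 in 5 of 5 tested cases, beside 54.2% of all genes, with a median of 0.51. SESN1 and SESN2 encode sestrins, which restrain mTOR complex 1 when amino acids or energy are short. SESN1 was at -0.98 (A1), -0.80 (M2), -0.59 (A2) and -0.58 (A3) in sictrl and at 0.07 (A1), 0.24 (M2), -0.06 (A2) and 0.19 (A3) in siUCA1. The conditions did not overlap, and SESN1 rose by 0.85 (standard error 0.12). With normexp background correction the log2 fold change of SESN1 was 0.48 and the call was lost, as it was with median scaling. SESN2 was at 1.55 (A1), 1.33 (M2), 1.21 (A2) and 1.33 (A3) in sictrl and at 1.49 (A1), 2.42 (M2), 2.43 (A2) and 2.33 (A3) in siUCA1. Its rise of 0.81 (standard error 0.21) was thus seen on 3 knockdown arrays, whereas siUCA1 A1 was below its namesake control. It was 1.04 without siUCA1 A1, and the call was lost when any one of the 7 remaining arrays was left out, with log2 fold changes down to 0.73. It was also lost with the slide column or the replicate name as a block, with median scaling and with normexp background correction.

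TIGAR, a phosphatase that lowers fructose-2,6-bisphosphate and turns glucose toward the pentose phosphate pathway, was at -0.42 (A1), -0.66 (M2), -0.34 (A2) and -1.18 (A3) in sictrl and at -0.13 (A1), -0.38 (M2), 0.05 (A2) and -0.08 (A3) in siUCA1. The low value of sictrl A3 widened the spread of the controls, and siUCA1 M2 lay among them. The log2 fold change was 0.51 (95% interval 0.09 to 0.94), not called, and 0.34 without sictrl A3. TP53I3, a quinone oxidoreductase, and FDXR, the reductase of mitochondrial ferredoxin, had log2 fold changes of 0.31 and 0.20 and were not called. CMBL, a hydrolase, was well above background on 1 sictrl array and on no siUCA1 array, and was not tested.

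None of the 4 genes of DNA repair and nucleotide supply was called, beside 11.6% of all genes, and their median was -0.0008. XPC and DDB2 recognize damage for nucleotide excision repair, the route that also removes platinum adducts, and they differed in sign. XPC had a log2 fold change of 0.24 (95% interval -0.18 to 0.67) and DDB2 one of -0.46 (95% interval -0.88 to -0.04). DDB2 was called without siUCA1 A1, at -0.62. RRM2B, the ribonucleotide reductase subunit that p53 induces, was at 0.37 (95% interval -0.15 to 0.88), and POLK, a polymerase that copies past damaged bases, at -0.25 (95% interval -0.65 to 0.16). Without siUCA1 A1 RRM2B and POLK were at 0.19 and -0.09, and XPC lay between 0.13 without sictrl A2 and 0.42 without sictrl A3.

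The remaining genes, of signalling, secretion and other functions, included none that was called, beside 11.6% of all genes. GDF15, a secreted stress cytokine of the TGF-beta superfamily, was at 10.12 (A1), 9.96 (M2), 10.25 (A2) and 10.94 (A3) in sictrl and at 11.58 (A1), 10.52 (M2), 10.73 (A2) and 10.82 (A3) in siUCA1. The highest array of each condition was one of the pair that stood apart. The log2 fold change was 0.60 (95% interval -0.02 to 1.21), and lay between 0.37 without siUCA1 A1 and 0.80 without sictrl A3. PHLDA3, a repressor of AKT, had a log2 fold change of 0.46, not called, with sictrl A3 at 5.72 and the remaining controls between 5.09 and 5.19. Without sictrl A3 it was 0.60 and called. SUSD6, RPS27L and NINJ1 were at 0.32, 0.24 and 0.08, and TP53I11 at -0.42, none of them called over all arrays. NINJ1 was at -0.003 without sictrl A1 and 0.21 without sictrl A3. The arrays of RPS27L, a ribosomal protein S27 relative, lay between 8.28 and 8.47 in sictrl and between 8.50 and 8.65 in siUCA1. ZMAT3, a zinc finger protein that binds RNA, was well above background on 1 sictrl and 2 siUCA1 arrays, and TRIM22 on none.

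Of the 35 tested genes, 12 had more than 1 probe well above background, and for 10 of these the probes had the same sign. For CCNG1 the brightest probe gave 0.44 and a second probe for the same transcript gave 0.98 (standard error 0.14), with values of 1.82 to 2.28 in sictrl and 2.95 to 3.33 in siUCA1. The second CCNG1 probe separated the conditions while the first did not, and sictrl A3 was the lowest control on the second and the highest on the first. For TP53INP1 a second probe gave 1.48 (standard error 0.18). For PPM1D a second probe gave 0.41 (standard error 0.13), and its conditions overlapped, with sictrl A3 at 2.35 and siUCA1 A2 at 2.32. The 3 MDM4 probes gave -0.77 and -0.21 for the reference transcript NM_002393 and -0.54 (standard error 0.10) for the variant NM_001278518, so that they had one sign and differed in size. On the MDM4 probe at -0.21 (standard error 0.135) the conditions overlapped, with sictrl A3 at 0.91 below every knockdown array. The 3 MDM2 probes gave -0.31, -0.09 and -0.05, none of them above 0. Probes of BAX gave -0.56 and -0.32 and those of DDB2 -0.46 and -0.43. Sign differed for FAS (0.31, 0.30 and -0.17) and for RRM2B (0.37 and -0.19). With the mean of kept probes in place of the brightest one, CCNG1 was at 0.71 and called, and RRM2B at 0.09.

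**Figure D3:**
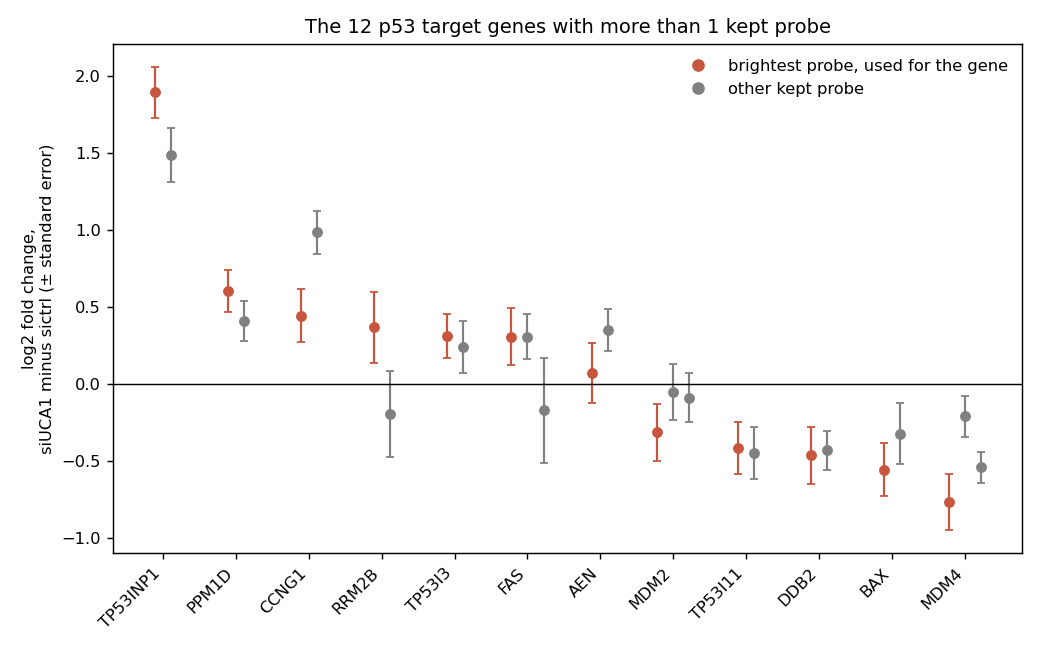
Log2 fold change (siUCA1 minus sictrl) of each kept probe, with its standard error, for the 12 p53 target genes with more than 1; red, the brightest probe, used for the gene, grey, the others. The CCNG1 probes lie at 0.44 and 0.98, the MDM2 probes all lie below 0, and the RRM2B probes lie on either side of 0.

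The list was compared with 65 further known p53 targets and with 32 regulators of p53, both written down with earlier results of these data known. Of the 65 further targets, 57 were tested, 8 rose and 2 fell, which is 17.5% beside 11.6% of all genes, and their median was 0.07. Among the called genes, the largest rises were those of SULF2, a heparan sulfate 6-O-endosulfatase, KITLG, the ligand of the receptor KIT, and RNF19B, a ubiquitin ligase. SULF2 rose by 0.87 (standard error 0.19, limma adjusted p = 0.0222), KITLG by 0.81 (standard error 0.18, limma adjusted p = 0.0250) and RNF19B by 0.79 (standard error 0.19, limma adjusted p = 0.0341). DDIT4, an inhibitor of mTOR complex 1 like the sestrins, fell by 1.05 (standard error 0.23, limma adjusted p = 0.0208). DDIT4 was at 2.57 (A1), 1.97 (M2), 2.27 (A2) and 2.37 (A3) in sictrl and at 1.91 (A1), 0.93 (M2), 1.03 (A2) and 1.11 (A3) in siUCA1, the opposite direction to SESN1 and SESN2. PANK1, a pantothenate kinase of coenzyme A synthesis, fell by 0.71 (standard error 0.17, limma adjusted p = 0.0331). All 5 of these genes lost their call without sictrl A2 and without siUCA1 A3, all but KITLG without sictrl A1 and without siUCA1 M2, all but DDIT4 without sictrl M2, DDIT4 and SULF2 without siUCA1 A2, and PANK1 without siUCA1 A1. Over all 8 fits with 1 array left out the log2 fold change of SULF2 lay between 0.75 and 1.02 and that of DDIT4 between -1.27 and -0.95. Median scaling left 0 further targets called higher and 3 lower. SULF2 and PANK1 also lost their call with the slide column as a block, PANK1 with the replicate name as a block, and RNF19B with the slide row.

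Among the regulators of p53, such as the damage kinases ATM and ATR, acetyltransferases and ubiquitin ligases, 27 of 32 were tested and their median was 0.02. EP300, an acetyltransferase that coactivates p53, rose by 0.51 (standard error 0.10, limma adjusted p = 0.0132), and DAXX, a histone chaperone that binds MDM2, fell by 0.43 (standard error 0.10, limma adjusted p = 0.0302). The 2 calls are 7.41% of the regulators tested, beside 11.6% of all genes. EP300 kept its call in all 8 fits with 1 array left out. DAXX lost its call without sictrl A1, M2 or A2 or siUCA1 M2, A2 or A3 (log2 fold change -0.49 to -0.38 over all 8). It also lost it with the slide column or the replicate name as a block. Both EP300 and DAXX lost their call with median scaling, with normexp background correction and without a detection filter. The 3 lists share their arrays, and the difference between them was not tested.

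**Figure D4:**
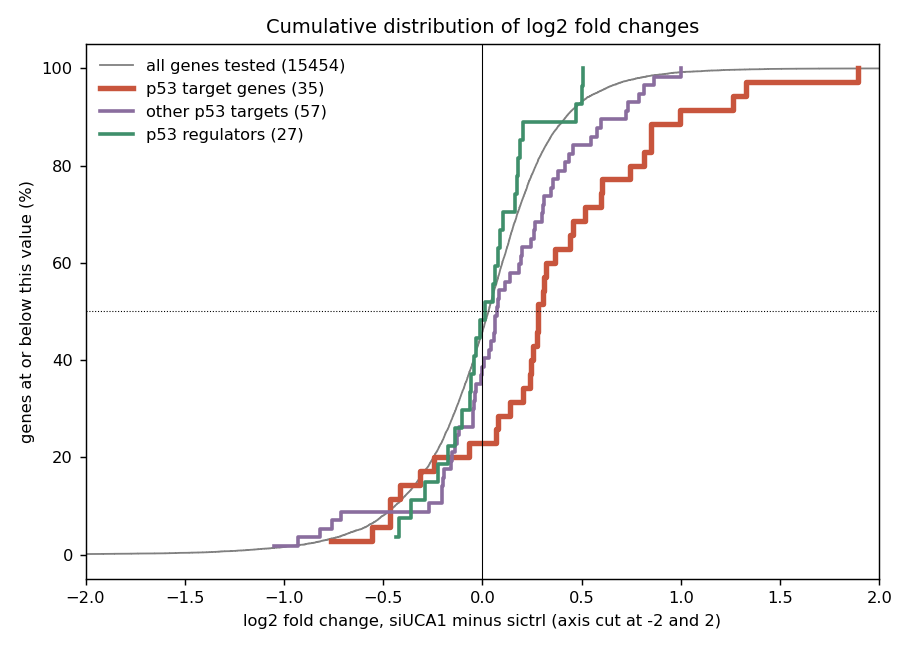
Cumulative share of genes (vertical axis, percent) at or below a log2 fold change (horizontal axis, siUCA1 minus sictrl, cut at -2 and 2) for all 15454 genes tested, 35 p53 target genes, 57 other p53 targets and 27 p53 regulators. The curve of the p53 target genes crosses 50% at 0.28, those of the others at 0.03, 0.07 and 0.02.

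Much of the list was high on sictrl A3, which was the highest of the 4 controls for 23 of the 35 genes (65.7%), compared with 44.6% of all genes. The median of the 35 genes relative to their sictrl mean was 0.29 on sictrl A3 and -0.09, -0.09 and -0.07 on A1, M2 and A2. On the siUCA1 arrays it was 0.31 (A1), 0.22 (M2), 0.25 (A2) and 0.49 (A3), so that on this measure sictrl A3 lay within the range of the knockdown arrays. The same held over all genes, with medians of 0.05 on sictrl A3 and 0.02 to 0.06 on the knockdown arrays. For genes called higher, which the test selected for their difference, the medians were 0.26 on sictrl A3 and 0.82 to 1.11 on the knockdown arrays. For genes not called they were 0.31 and 0.13 to 0.34. With both of the apart arrays left out, 22 of 35 genes were called, 17 higher and 5 lower, beside 25.6% of all genes, and the median was 0.35. All 10 genes called over the 8 arrays were among these 22, and the other 12 were BAX, CCNG1, DDB2, FDXR, GADD45A, GDF15, PERP, PHLDA3, PLK3, SUSD6, TNFRSF10B and TP53I11. Whether the surface trend contributes to the values of sictrl A3 was not tested.

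Each of the 4 columns of the slide held 1 array of each condition, and the 2 arrays that stood apart shared column 2. The difference within a column had a median over the 35 genes of 0.39, 0.20, 0.27 and 0.46 in columns 1 to 4, with 27, 21, 26 and 27 genes above 0. With the slide column as a block, 7 of the 10 called genes kept their call, MDM4, DRAM1 and SESN2 lost it, and DDB2 and GDF15 gained one, beside 8.26% of all genes called. With 1 array left out at a time, TP53INP1, BTG2, CDKN1A, SPATA18, SESN1 and BBC3 kept their call in all 8 fits. The count of called genes was 6 without sictrl A1, M2 or A2 or siUCA1 A2 or A3, 7 without siUCA1 M2, 13 without sictrl A3 and 14 without siUCA1 A1. The share of all genes called moved in the same way, to between 4.94% and 7.12% in the fits with 6 or 7 calls, 14.7% without sictrl A3 and 15% without siUCA1 A1. Scaling each array to its median in place of the 75th percentile left 4 calls, all higher, namely BTG2, CDKN1A, SPATA18 and TP53INP1, with 114 genes higher and 421 lower over all genes, in place of 884 and 904.

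**Figure D5:**
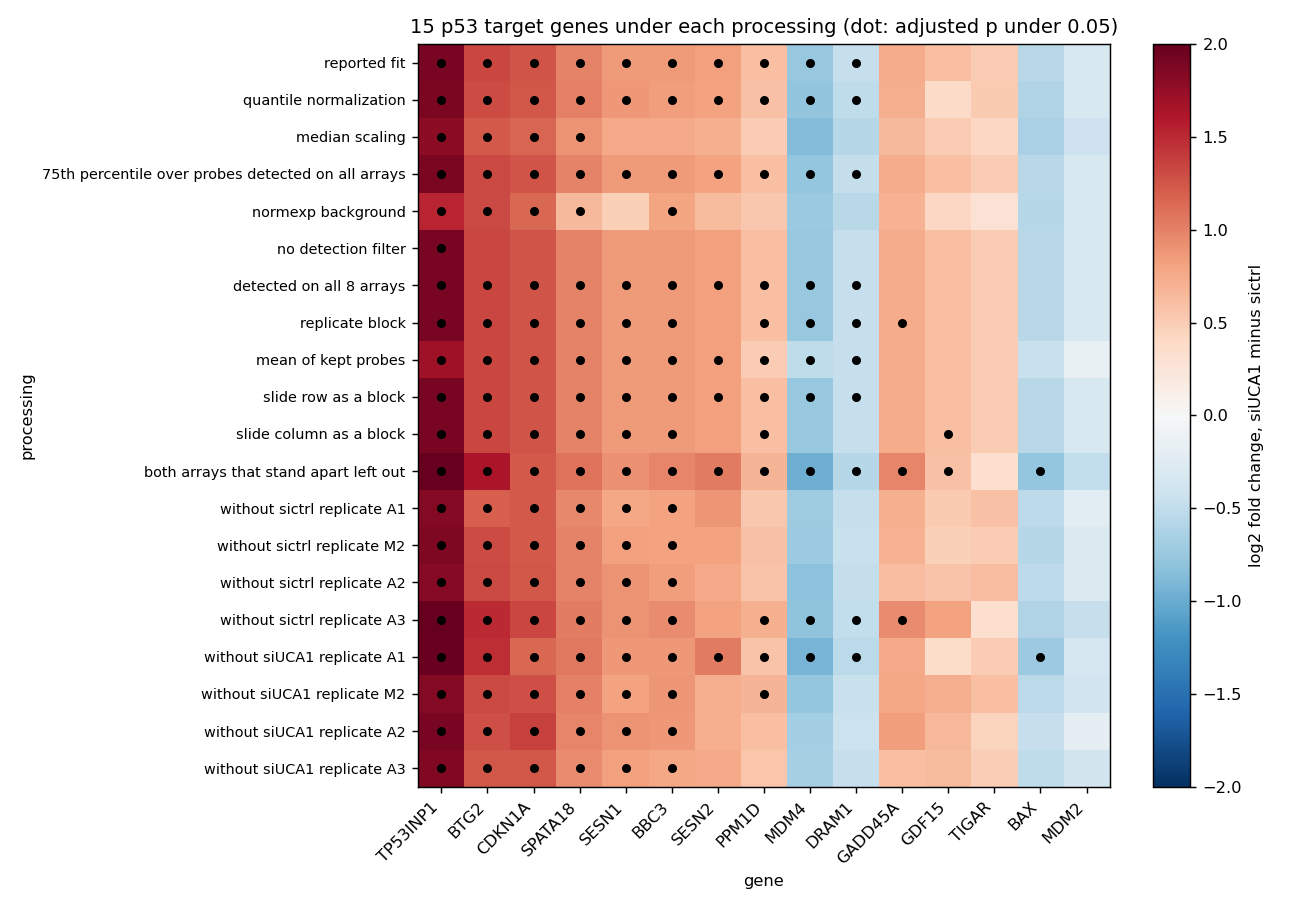
Log2 fold change (color, siUCA1 minus sictrl) of 15 p53 target genes (columns) in the reported fit and under 11 alternatives and 8 fits with 1 array left out (rows); a dot marks an adjusted p under 0.05. The colors of a gene keep their side of 0 in every row, and TP53INP1 alone has a dot in all of them.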

How the data were processed

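RNA of 8 cultures was measured on one-color arrays. The authors deposited the spot intensity given by Agilent Feature Extraction 10.7.3.1, already background-subtracted and detrended over the surface and not normalized between arrays; the deposited value table held the same numbers. Conditions and replicate names come from the labels. Here, log2 intensities were set relative to each array's 75th percentile of 60901 non-control spots, outlier spots were left out and spots of a probe averaged. Probes that were well above background throughout sictrl, siUCA1 or both (all 4 arrays) were kept (19045 probes, 15454 genes), and the brightest stood for its gene. Names came from RefSeq (GRCh38.p14) or the array's design. limma 3.58.1 in R 4.3.3, with data.table (version 1.17.8), compared the conditions without a block, with Benjamini-Hochberg adjustment over all genes. The fit was also run on simulated data. Those were drawn without effects shared by the genes of an array, and so cannot show the error rate where arrays stand apart. Summaries and plots used Python 3.11.15, pandas 2.3.3 and matplotlib 3.10.9. The study's methods name limma with the same adjustment, and no normalization for these arrays.

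The genes and lists were chosen with earlier results of these data known. Values on every array are given for called genes, for CDKN1A and MDM2 and for other genes that differed by at least 0.5, and other genes by fold change; of the further lists, up to 3 rises and 3 falls are named. No p is given for the 39 genes. The alternatives tried were quantile normalization, median scaling, the percentile over probes detected on all arrays, normexp background correction with an offset of 50, no detection filter, a filter that asks for all 8 arrays, a block for replicate name, slide row or slide column, the mean of kept probes, and arrays left out. The slide column was added after seeing the data. The number of arrays limits the precision, and for dim probes the background does.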

Additional observations from a re-analysis of the deposited data

Results flagged for a closer look

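For each of the 35 tested genes and UCA1, the 4 values of a condition were searched for 1 array far from the other 3, by Dixon's ratio of the gap to the nearest array over the range. This was met in 12 of 72 sets of 4 values, where chance alone gives about 5% of sets. In 6 sets the distant array was sictrl A3, in 5 siUCA1 A1 and in 1 siUCA1 A3. On sictrl A3, CDKN1A was at 1.52 (other controls 1.22 to 1.27), DDB2 at 5.50 (5.00 to 5.06), PHLDA3 at 5.72 (5.09 to 5.19), PLK2 at 6.64 (6.00 to 6.10) and PERP at 5.30 (4.80 to 4.85), all above the rest, and TRIAP1 at 3.36 (4.01 to 4.10), below it. On siUCA1 A1, TP53I11 was at 0.44 (other knockdown arrays -0.25 to -0.15) and FAS at 3.52 (2.71 to 2.80), above the rest, and SESN2 at 1.49 (2.33 to 2.43), POLK at 1.08 (1.65 to 1.77) and CCNG1 at 3.57 (3.99 to 4.07), below it. BBC3 was at 5.17 on siUCA1 A3 (4.82 to 4.87). The surface trend of both arrays is given above, and its part in these values was not tested.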

How the results depend on the processing

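The median log2 fold change of the 35 genes stayed above 0 under all 11 alternatives and all 8 fits with 1 array left out (0.19 to 0.40), UCA1 stayed called lower in each (-5.46 to -4.85), and no called gene changed sign in any. Counts of called genes moved by more than 1.5 times as follows, given as p53 target genes, other p53 targets, regulators and all genes: median scaling 4, 3 (all lower), 0 and 535; normexp 6, 4, 0 and 380; no detection filter 1, 0, 0 and 76 of 47753; both apart arrays left out 22, 24, 7 and 3957. The slide column as a block left 9 p53 target genes called, 7 of them shared with the reported fit (without MDM4, DRAM1 and SESN2), and 1 regulator in place of 2. With 1 array left out, p53 target genes ranged from 6 to 14, other p53 targets from 1 to 15, regulators from 1 to 4 and all genes from 764 to 2319. Under the last-named drop of the filter, TP53INP1 alone kept its call; normexp kept BBC3, BTG2, CDKN1A, SPATA18 and TP53INP1 and added DDB2, lower. Arrays of the same replicate name deviated together only in part (correlations 0.04, 0.28, 0.22 and 0.13 for A1, M2, A2 and A3). Between arrays of different names the correlations ranged from -0.311 to 0.205. These values do not settle whether the names pair the samples, and the reported fit uses no block. The replicate block left 10 p53 target genes called, 9 of them the same, with GADD45A in place of SESN2, and 1727 genes in all. It left 1 regulator (EP300, without DAXX) and 10 other p53 targets. These were not all the same as in the reported fit, since PANK1 and others lost their call. The cause of these shifts was not tested. Differences of dim probes are limited by the background.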
